A study of Mus musculus with 24 samples.

Results

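The microRNA precursors mmu-mir-692-1, mmu-mir-692-2, mmu-mir-692-3, mmu-mir-682 and mmu-mir-703, written without the species prefix from here on, are 5 of the 1187 precursors counted in the BV2 mouse microglial cell line and in the extracellular vesicles (EVs) that these cells release. The members were picked by name from earlier results on these counts because they leaned higher in EVs of cytokine-treated cells, so every value among the EV groups is given as a description without a test. BV2 is a single immortalised line, standing in for microglia, the resident macrophages of the brain. The 24 small RNA libraries form 8 groups of 3: EVs of cells given LPS, IL-10 or TGF-β, EVs of untreated control cells, and the 4 corresponding groups of cells. LPS, a bacterial cell wall component that activates microglia, was given at 100 ng/mL, and the cytokines IL-10 and TGF-β, which restrain inflammation, at 50 ng/mL each. Treatment lasted 72 h. Nothing in the labels ties the 3 libraries of a group to different cultures, and p-values therefore measure only the spread between these libraries, which may be technical.

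A microRNA is cut from a hairpin precursor to a short mature strand, and bases 2 to 8 of that strand, the seed, direct it to its target mRNAs. EVs are membrane-bound particles that carry RNA and protein between cells, and their small RNA holds fragments of ribosomal RNA, tRNA and mRNA besides microRNAs. A hairpin annotated inside a copy of an abundant gene can share its sequence with the mRNA of that gene. Such copies often are processed pseudogenes, mRNAs that were copied back into the genome.

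The mature sequences, from RefSeq on build GRCm38.p6 and found for 5 of 5 members, show that the 3 mir-692 precursors cannot be separated by their product. They are written 5′ to 3′ with the seed in capitals.
mmu-miR-692: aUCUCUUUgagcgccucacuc
mmu-miR-682: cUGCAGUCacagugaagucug
mmu-miR-703: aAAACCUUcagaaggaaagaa
The identical miR-692 strand lies at chr17:6895259-6895279 on the minus strand in mir-692-1, at chr4:125504805-125504825 on the plus strand in mir-692-2 and at chr13:74407121-74407141 on the plus strand in mir-692-3. The miR-682 strand lies at chr13:75645119-75645139 on the plus strand, and miR-703 at chr5:98475616-98475636 on the minus strand. The 3 seeds differ from one another. Of the 1187 precursors in the tables, 1018 had a mature sequence to search, and among these 0 other precursors carry any of the 3 seeds.

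The members' loci carry copies of housekeeping genes. In the GENCODE M21 annotation, mir-682 lies in an exon of Gm4149, a processed pseudogene. mir-692-2 lies partly in an exon of Ftl2-ps, a processed ferritin light chain pseudogene within an intron of the glutamate receptor gene Grik3. mir-692-3 lies in an exon of Ftl1-ps1, a ferritin light chain copy that this annotation lists as protein-coding. mir-703 lies in an intron of Cfap299, on the opposite strand, and mir-692-1 overlaps no other annotated gene.

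Each of the 4 members' hairpins found in the RefSeq table matched a spliced mRNA from another locus, in the sense direction and over its whole length. The mir-692-1 hairpin of 109 bases matched Ftl1, which encodes the ferritin light chain that stores iron, at 94.6% identity, and the mir-692-2 hairpin of 109 bases matched it at 97.2%. Against Ftl1-ps1 the identity was 96.4% for mir-692-1 and 100% for mir-692-2. The mir-682 hairpin of 96 bases matched Rpl37a, which encodes a protein of the large ribosomal subunit, at 95 of 96 positions (99.0%). The mir-703 hairpin of 109 bases matched the 3′ untranslated region of Eef1a1, the elongation factor that delivers aminoacyl-tRNA to the ribosome, at 98.2%. Such matches were uncommon: of 967 hairpins in the tables with a sequence, 9 (0.931%) matched an mRNA of another locus at 90% identity or more over at least 80% of their length, and 4 of these 9 are members. An exact copy of the mature strand was present in the coding sequence of Ftl1 for miR-692, in that of Rpl37a for miR-682 and in the 3′ untranslated region of Eef1a1 for miR-703, while 118 of 1616 mature strands (7.30%) had an exact copy in any protein-coding transcript. Reads from these mRNAs and reads from the hairpins cannot be told apart in the deposited counts wherever the sequences are identical.

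A stretch of each hairpin around the mature strand and inside the coding match is shown because it carries this match, with the mature strand in capitals.
mir-692-1: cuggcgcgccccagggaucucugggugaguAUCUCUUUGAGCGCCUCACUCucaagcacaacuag
mir-692-2: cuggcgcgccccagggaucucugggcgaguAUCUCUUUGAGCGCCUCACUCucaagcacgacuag
mir-682: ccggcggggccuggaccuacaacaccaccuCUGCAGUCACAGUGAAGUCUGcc
The stretches of mir-692-1 and mir-692-2 are 65 bases long and differ at 2 positions, both outside the mature strand. The mir-682 stretch is 53 bases long.

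Library totals were 15071 to 28727 counts in EVs and 185400 to 409969 counts in cells, so 3 counts correspond to 0.0104 to 0.0199% of an EV library and to 0.000732 to 0.00162% of a cell library. A single precursor, mir-6236, took 49.9 to 79.5% of the counts of an EV library and 0.574 to 1.63% of those of a cell library, and it was lowest in the 3 LPS EV libraries and in IL-10 EV library 1 (61.2%). All 6 myeloid precursors checked had counts in cells, with a summed share of 0.477 to 5.24%. In EVs 3 to 5 of the 6 had counts in a group, with a summed share of 0.0821 to 0.843%, and mir-223, a defining myeloid precursor, was at 0 in every EV library. Precursors of liver, muscle, epithelium, neurons and oligodendrocytes together with those of red cells took at most 0.00599% per list in cells. In EVs the highest summed shares were 0.945% for the epithelial list in a TGF-β library and 0.492% for the neuronal list in a control library. The epithelial value was almost all mir-203, with 158 counts (0.9445%) in TGF-β EV library 1. Only 2 of the 6 epithelial precursors had a count in TGF-β EVs. The part of these lists and of mir-6236 in the members' values was not tested.

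In EVs the 5 members together took 1.75, 1.38 and 1.35% of the counts in the LPS libraries, 9.03, 2.40 and 1.27% in the IL-10 libraries and 1.94, 9.48 and 10.5% in the TGF-β libraries, against 0.504, 1.30 and 2.15% in the control libraries. IL-10 EV library 1 and TGF-β EV libraries 2 and 3 thus stood far above the rest. In these bulk libraries, more RNA per vesicle and more vesicles that carry it cannot be told apart. The other 3 cytokine EV libraries, at 1.27 to 2.40%, lay within or just above the range of the control EVs. The group means were 1.49 ± 0.221% for LPS, 4.23 ± 4.19% for IL-10 and 7.32 ± 4.68% for TGF-β, against 1.32 ± 0.823% for control (SD, n = 3 each). The spread within the IL-10 group was about as large as its mean.

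**Figure D1:**
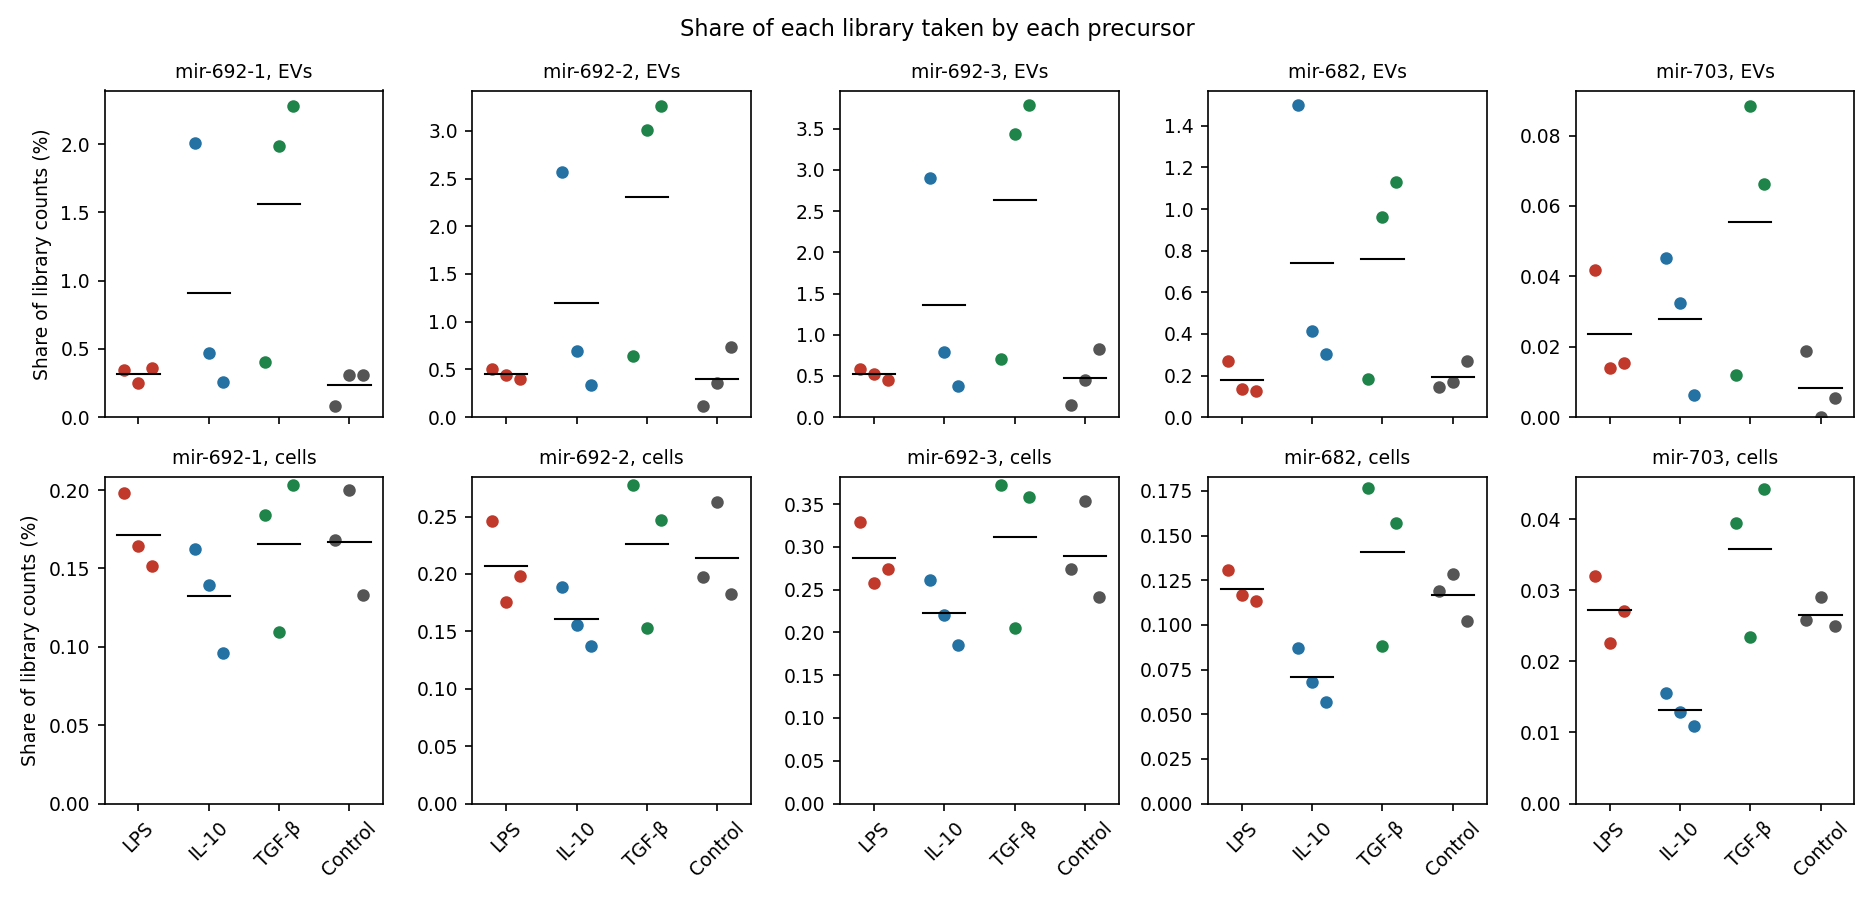
Share of each library's counts (%) taken by each of the 5 precursors in EVs (top row) and cells (bottom row), with linear axes starting at 0 that differ between panels; points are libraries 1 to 3 from left to right and bars are group means. In EVs, IL-10 library 1 and TGF-β libraries 2 and 3 stand above the other libraries for the mir-692 copies and mir-682. In cells, TGF-β library 2 lies below libraries 1 and 3 for each member, by a smaller gap.

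The mir-692 copies carried most of this signal. mir-692-3 had 141, 152 and 118 counts in LPS EVs, 515, 122 and 58 counts in IL-10 EVs and 117, 544 and 570 counts in TGF-β EVs, against 23, 73 and 149 counts in control EVs. As shares these are 0.589, 0.529 and 0.456% after LPS, 2.91, 0.792 and 0.372% after IL-10 and 0.699, 3.43 and 3.78% after TGF-β, against 0.145, 0.455 and 0.826% in control EVs. On this measure only the 3 libraries named above exceeded the highest control library. In each of those 3 libraries mir-692-3, mir-692-2 and mir-692-1 were the third, the fourth and the fifth most counted precursors, behind mir-6236 and mir-6240. mir-692-2 took 0.447 ± 0.0535% in LPS EVs, 1.20 ± 1.20% in IL-10 EVs and 2.31 ± 1.45% in TGF-β EVs, against 0.404 ± 0.314% in control EVs. mir-692-1 took 0.317 ± 0.0586% in LPS EVs, 0.911 ± 0.957% in IL-10 EVs and 1.56 ± 1.01% in TGF-β EVs, against 0.235 ± 0.132% in control EVs (SD, n = 3 each).

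As a share of counts, mir-682 was higher in every IL-10 EV library than in every control EV library. These are values by which it was chosen, and nothing is read from this gap. It had 65, 39 and 33 counts in LPS EVs, 266, 64 and 47 counts in IL-10 EVs and 31, 152 and 170 counts in TGF-β EVs, against 23, 27 and 49 counts in control EVs. The shares were 1.50, 0.416 and 0.301% in IL-10 EVs, against 0.145, 0.168 and 0.272% in control EVs. TGF-β EV library 1, at a share of 0.185%, lay within the control range of shares.

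mir-703 was close to the limit of detection in EVs. It had 10, 4 and 4 counts in LPS EVs, 8, 5 and 1 counts in IL-10 EVs and 2, 14 and 10 counts in TGF-β EVs, against 3, 0 and 1 counts in control EVs. The 0 in control EV library 2 allows a share of up to 0.0187%, counting error only. mir-703 did not pass the filter on low counts among the EV libraries, which 71 precursors including the other 4 members passed.

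Scaled by TMM, which corrects library totals for a few dominant precursors, the EV values placed TGF-β and IL-10 EVs above control EVs, and LPS EVs below them. The log2 differences from control EVs were 1.62, 1.31, 1.25 and 1.74 after IL-10 for mir-692-1, mir-692-2, mir-692-3 and mir-682, and 2.89, 2.72, 2.67 and 2.17 after TGF-β. After LPS they were -0.66, -0.87, -0.88 and -1.09. On library totals the LPS differences of the 3 mir-692 copies turn positive, at 0.43, 0.14 and 0.14, and that of mir-682 is -0.13. Without LPS EV library 1 the mir-682 difference was -1.87. Without IL-10 EV library 1, the IL-10 differences were 1.07, 0.83, 0.77 and 1.40. Among the 71 precursors, 2 (2.82%) had all IL-10 EV libraries above all control EV libraries, and both were members, mir-692-1 and mir-682. For TGF-β these were 5 of 71 (7.04%), 4 of them members. For LPS they were 14 of 71 (19.7%), none of them a member. These counts restate the choice of the members, and nothing is read from them.

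Set against cells over all 4 treatments, the mir-692 copies and mir-682 were at higher shares in most EV libraries, and mir-703 was not. The cytokine EV libraries in which the members were found to be high enter this contrast, so its values are given as a description and no p is printed for a member. As shares, mir-692-3 ranged from 0.145 to 3.78% in EVs with a median of 0.644%, against 0.186 to 0.373% in cells with a median of 0.268%, and 10 of 12 EV libraries lay above every cell library. The corresponding count was 11 of 12 for mir-692-1 and for mir-692-2, 8 of 12 for mir-682 and 3 of 12 for mir-703. With mir-6236 and mir-6240 left out of the totals it was 12 of 12 for the mir-692 copies and mir-682, and 8 of 12 for mir-703. The median share of mir-703 was 0.0172% in EVs, against 0.0254% in cells.

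In edgeR's quasi-likelihood fit with TMM scaling and Benjamini-Hochberg adjustment over 280 precursors, 5 of 5 members were among the 22.1% called higher in EVs, with 60.7% called in either direction. Nothing is read from this count, since the choice of members drew on these libraries. The log2 fold change of EVs over cells was 3.77 ± 0.27 for mir-692-1, 4.00 ± 0.28 for mir-692-2, 3.75 ± 0.27 for mir-692-3 and 3.73 ± 0.25 for mir-682 (± SE). For these 4 members every EV library exceeded every cell library on the TMM scale. The share of all precursors with such a gap over the 4 treatments is not given here, so nothing is read from this gap. For mir-703 the log2 fold change was 1.92 ± 0.42, and the EV and cell libraries overlapped. The median over all precursors tested was -0.83. With the cytokine groups left out, an average of the LPS and control groups added after the values were seen, the log2 fold changes were 2.40 ± 0.36, 2.75 ± 0.38, 2.53 ± 0.37 and 2.39 ± 0.34 for these 4 members and 0.71 ± 0.57 for mir-703.

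The size of this difference depended on the scaling, and for mir-703 so did its direction. With DESeq2 size factors the 5 log2 fold changes were 4.57, 4.80, 4.55, 4.53 and 2.71, with a median over all precursors of -0.07. On library totals they were 1.85, 2.07, 1.82, 1.78 and -0.06, with a median of -2.78. The calls over all precursors split into 62 higher and 108 lower with TMM, 73 and 32 with DESeq2 size factors, and 55 and 193 on library totals. Without the 3 EV libraries that stood apart, an alternative added after the values were seen that leaves TGF-β EVs with 1 library assumed to vary like the others, the log2 fold changes were 2.60, 2.87, 2.61, 2.59 and 0.82.

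**Figure D2:**
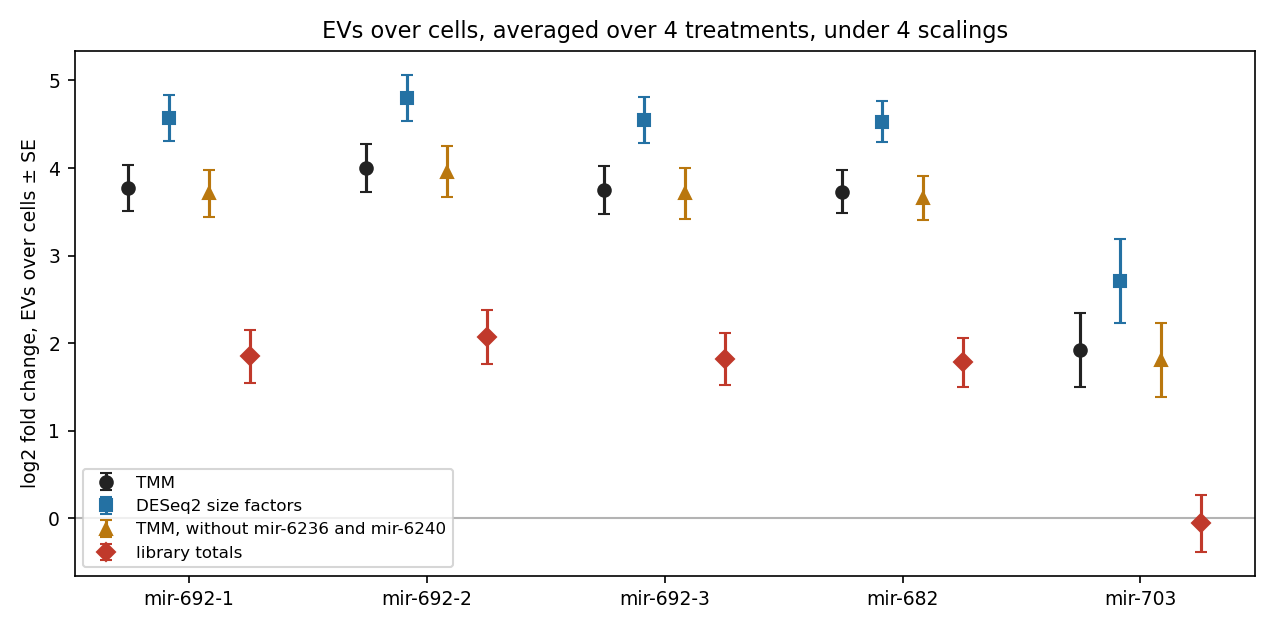
Log2 fold change of EVs over cells, averaged over the 4 treatments, for the 5 precursors under 4 scalings; bars are standard errors (12 EV and 12 cell libraries). The 3 mir-692 copies and mir-682 stay above 1.7 under each of the 4, while mir-703 lies at -0.06 on library totals.

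Split by treatment and given as a description, the EV over cell difference was smaller for the groups that the choice of members did not favour. For mir-692-3 the log2 difference was 2.21 after LPS, 4.47 after IL-10, 5.48 after TGF-β and 2.86 in control. On library totals it was 0.87 after LPS, 2.61 after IL-10, 3.08 after TGF-β and 0.72 in control. For mir-682 it was 1.88 after LPS, 5.31 after IL-10, 4.82 after TGF-β and 2.90 in control, and on library totals 0.56, 3.39, 2.42 and 0.75 in the same order. All of these are smaller on library totals. For mir-703 it was 1.00 after LPS, 3.17 after IL-10, 3.09 after TGF-β and 0.42 in control, and on library totals it reversed to -0.24 after LPS and to -1.72 in control. On the TMM scale all EV libraries of a treatment lay above all its cell libraries for the mir-692 copies and mir-682 in each of the 4 treatments, and for mir-703 after either cytokine. The share of all precursors with such a gap was 18.2% after LPS, 13.9% after IL-10, 12.1% after TGF-β and 13.9% in control.

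Ratios of members within a library do not depend on any scaling. Of the counts of the 3 mir-692 copies, mir-692-1 held 24.3 ± 3.42% in EVs and 24.9 ± 1.70% in cells, mir-692-2 held 35.0 ± 1.95% in EVs and 31.6 ± 1.21% in cells, and mir-692-3 held 40.7 ± 1.87% in EVs and 43.5 ± 0.724% in cells (SD, n = 12 each). The ratio of mir-692-2 to mir-692-3 lay above that of every cell library in 12 of 12 EV libraries, with a lowest EV value of 0.783 and a highest cell value of 0.755. Since the mature strand is the same in all copies, counts that differ between copies include reads that reach bases outside it or were shared out by a rule of the authors' counting that no label or file header states. The mir-692-2 hairpin matched Ftl1-ps1 at 100%, and mir-692-3 lies in an exon of Ftl1-ps1. That match covered 109 of 109 bases, and the mir-692-3 hairpin is also 109 bases long and on the same strand as Ftl1-ps1. The mir-692-3 hairpin itself was not aligned, but with this placement no base inside the hairpins is known to separate mir-692-2 from mir-692-3. What the gap in their ratio comes from was not tested.

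The ratio of mir-703 to mir-692-3 was lower in EVs, with a median of 0.0216 in EVs against 0.0960 in cells, and 10 of 12 EV libraries lay below every cell library. The exceptions were control EV library 1, which held 3 mir-703 counts, and LPS EV library 1. The ratio of mir-682 to mir-692-3 spanned 0.257 to 1.00 in EVs and 0.307 to 0.475 in cells, with medians of 0.349 and 0.418. Within EVs this ratio was 0.257, 0.280 and 0.461 after LPS, 0.517, 0.525 and 0.810 after IL-10 and 0.265, 0.279 and 0.298 after TGF-β, against 0.329, 0.370 and 1.00 in control.

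**Figure D3:**
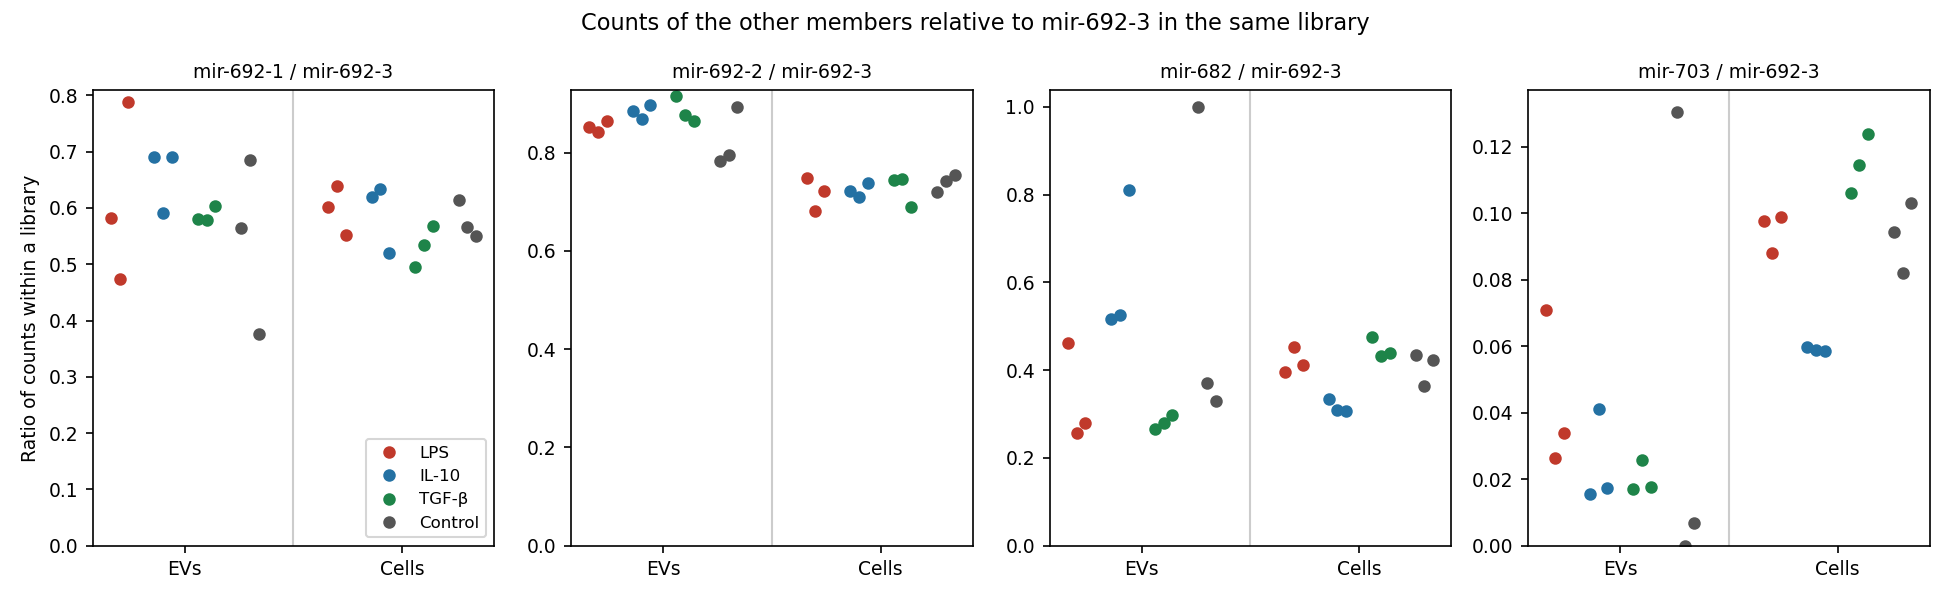
Counts of mir-692-1, mir-692-2, mir-682 and mir-703 divided by those of mir-692-3 in the same library, for 12 EV and 12 cell libraries; colours give the treatment and each point is a library. The mir-692-2 ratio does not overlap between EVs and cells, and in cells the mir-703 ratio is lowest in the 3 IL-10 libraries.

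In cells the members were counted well, which allows the treatments to be tested on libraries that the choice did not use. mir-692-3 had 769, 477 and 567 counts in LPS cells, 921, 748 and 649 counts in IL-10 cells and 1055, 663 and 1122 counts in TGF-β cells, against 794, 1449 and 698 counts in control cells. It ranked 30th to 39th by share among precursors in the 4 cell groups, while in EVs it was 16th after LPS, 3rd after IL-10, 3rd after TGF-β and 8th in control. The 5 members together took 0.812 ± 0.108% of counts in LPS cells, 0.599 ± 0.114% in IL-10 cells and 0.880 ± 0.261% in TGF-β cells, against 0.814 ± 0.147% in control cells (SD, n = 3 each). Each treated group overlapped the control cells, while all 3 IL-10 libraries lay below all 3 LPS libraries. The highest cell library held 1.05%.

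mir-703 fell in IL-10-treated cells. It had 75, 42 and 56 counts in LPS cells, 55, 44 and 38 counts in IL-10 cells and 112, 76 and 139 counts in TGF-β cells, against 75, 119 and 72 counts in control cells. On the TMM scale it was at 150, 146 and 104 CPM (counts scaled to a common library size) in IL-10 cells, against 205, 278 and 217 in control cells, and the groups did not overlap. The log2 fold change was -0.82 ± 0.22 (edgeR adjusted p = 0.0247). This was 1 of 5 members called, where 7.72% of 259 precursors were called in either direction and 2.32% were called lower. The call was lost without IL-10 library 2 or 3 and without control library 1 or 2, with adjusted p = 0.0592 to 0.0831 and log2 fold changes of -0.94 to -0.68. Over all precursors the calls split into 14 higher and 6 lower with TMM, and 11 higher and 18 lower on library totals.

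mir-682 did not pass the test after IL-10. It was at 839, 771 and 545 TMM-scaled CPM in IL-10 cells, against 945, 1230 and 891 in control cells. Every IL-10 library lay below every control library, and the log2 difference was -0.51 ± 0.20 (edgeR adjusted p = 0.110). It passed on library totals (-0.72, adjusted p = 0.0414), without the filter on low counts (-0.61, adjusted p = 0.00414) and with only the compared groups in the fit (-0.59, adjusted p = 0.0424). The mir-692 copies differed by -0.22 to -0.13 and overlapped the control cells.

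Within-library ratios of the members also separated some of the treated cell groups from control, but not LPS cells. The ratio of mir-703 to mir-692-3 was 0.0586 to 0.0597 in the IL-10 cell libraries and 0.106 to 0.124 in the TGF-β cell libraries, against 0.0821 to 0.103 in the control cell libraries. IL-10 and TGF-β libraries lay on opposite sides of control without overlap. LPS cells, at 0.0881 to 0.0988, overlapped control. The ratio of mir-682 to mir-692-3 was 0.307 to 0.333 in IL-10 cells, against 0.363 to 0.435 in control cells. For this ratio both LPS cells (0.397 to 0.453) and TGF-β cells (0.431 to 0.475) overlapped control. These ratios were picked out after the values were seen and carry no test.

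After TGF-β none of the 5 members was called in cells, where 6.56% of 259 precursors were. The log2 differences from control cells were 0.11, 0.20 and 0.23 for the mir-692 copies, 0.41 ± 0.20 for mir-682 (edgeR adjusted p = 0.204) and 0.55 ± 0.19 for mir-703 (adjusted p = 0.0893). At an unadjusted p under 0.05, 2 of them passed, mir-682 and mir-703. The share of all precursors at that threshold is not given here or below, so nothing is read from such counts. TGF-β cell library 2 held the lowest value of its group for every member. Without it both were called, mir-682 at 0.61 (adjusted p = 0.0447) and mir-703 at 0.73 (adjusted p = 0.0161).

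For the mean of both cytokine groups against control cells, the cell counterpart of the contrast by which the members were chosen, 0 of 5 members were called in cells by edgeR, and 0 had an unadjusted p under 0.05. The log2 differences lay between -0.13 and 0.03, with standard errors of 0.17 to 0.19. These means average opposite signs: -0.82 after IL-10 and 0.55 after TGF-β for mir-703, and -0.51 and 0.41 for mir-682. The mean therefore does not show that either cytokine left the members unchanged. Of all 259 precursors, 6.95% were called. DESeq2's Wald test called 0 members as well.

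After LPS 0 of 5 members were called against control cells, where 32.0% of precursors were called. The log2 differences were 0.35 to 0.45, with edgeR adjusted p = 0.0873 to 0.202. An unadjusted p under 0.05 was found for 2 members, mir-682 and mir-703. Nothing is read from that count, since 32.0% of all precursors passed even after adjustment. DESeq2's Wald test called 0 members. mir-682 was at 1559, 1369 and 1272 TMM-scaled CPM in LPS cells, against 945, 1230 and 891 in control cells, and the groups did not overlap on this scale. As shares of the library totals they did overlap, at 0.130, 0.117 and 0.113% in LPS cells against 0.119, 0.128 and 0.102% in control cells.

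LPS cells were also set against the averaged cytokine cells. There 2 of 5 members were called higher, mir-703 at 0.58 ± 0.19 (edgeR adjusted p = 0.0187) and mir-682 at 0.50 ± 0.17 (adjusted p = 0.0226), in a contrast where 41.7% of 259 precursors were called and 22.0% were called higher. The libraries overlapped for both. TGF-β cell libraries 1 and 3 held more mir-703 on the TMM scale, at 398 and 391 CPM, than any LPS library, at 383, 266 and 305. Neither call held on library totals (mir-703 0.34, adjusted p = 0.195, and mir-682 0.27, adjusted p = 0.272), and neither held without LPS library 1 (adjusted p = 0.143 and 0.0987). Over all precursors the split was 57 higher and 51 lower with TMM, against 35 and 76 on library totals.

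**Figure D4:**
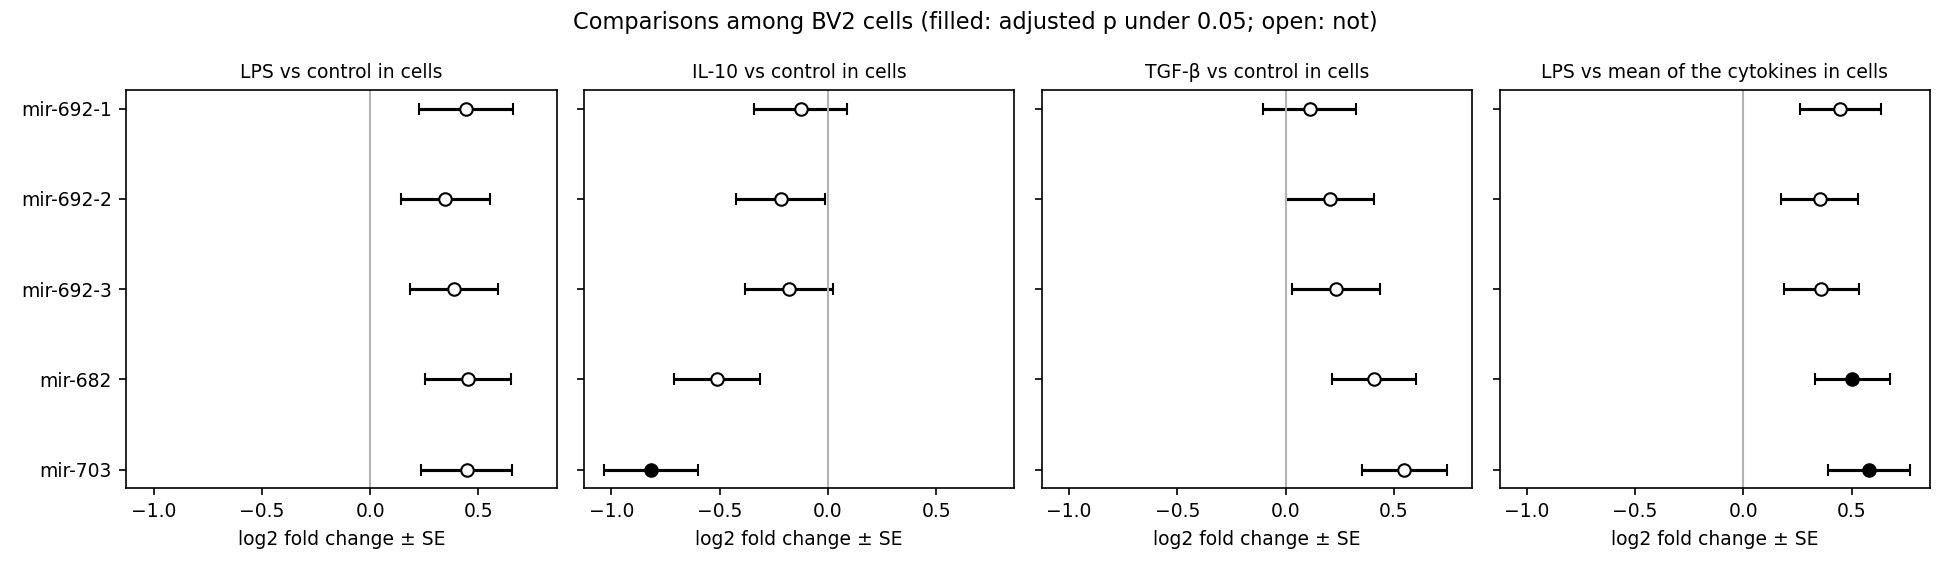
Log2 fold changes with standard errors for the 5 precursors in 4 comparisons among BV2 cells (3 libraries per group; 6 cytokine libraries in the last panel); filled points have an edgeR adjusted p under 0.05. Only mir-703 after IL-10 and mir-682 and mir-703 in LPS against the cytokine mean are filled.

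Among themselves the members varied together. The EV values are those by which they were chosen, and the mir-692 copies have the same mature strand and may share reads. The correlations in EVs and between copies therefore do not show separate precursors moving together. On log2 TMM-scaled counts over the 12 EV libraries, Pearson's r was 0.984 to 0.999 between mir-692 copies and 0.914 to 0.920 between each copy and mir-682. Over the 12 cell libraries it was 0.922 to 0.991 between copies and 0.954 between mir-682 and mir-703. Between the copies and mir-682 it was 0.839 to 0.914, and between the copies and mir-703 it was 0.713 to 0.821. In cells the ribosomal protein match mir-682 and the elongation factor match mir-703 were closer to each other than either was to a ferritin match.

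The precursors with the most similar pattern in cells, of 246 with a mean of at least 10 counts, were mir-3068, mir-5099, mir-467c, mir-7067, mir-92a-1 and mir-92a-2. Pearson's r was 0.797 between mir-692-1 and mir-3068, and 0.828 between mir-703 and mir-7067. In EVs, of 61 such precursors, mir-7688 came first for each of the 4 members, with r of 0.650 to 0.735. It had 5, 1 and 9 counts in LPS EVs, 37, 7 and 13 counts in IL-10 EVs and 0, 9 and 18 counts in TGF-β EVs, against 0, 13 and 8 counts in control EVs. It thus shared the high value of IL-10 EV library 1 but not the size of the TGF-β values. These libraries share depth and scaling factors, so the correlations are descriptions.

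Precursors with neighbouring registry numbers, mir-680 to mir-721 without the members, gave a mixed picture. Of 34 listed, 25 had a count and 6 could be tested between EVs and cells, of which 4 were called higher in EVs, mir-688, mir-690, mir-708 and mir-718, beside the 22.1% of all precursors called higher. mir-690, the one counted in all 24 libraries, had a log2 fold change of 4.05 ± 0.30 (edgeR adjusted p = 8.98e-12), and took 0.0463% of the summed EV counts and 0.0107% of the summed cell counts. mir-708 had 41 counts in EVs and 1 in cells, mir-718 had 19 and 8, and mir-688 had 83 and 38. No cell library held more than 7 counts of any of them. Cell libraries were much deeper, so such low counts could pass the filter only through EV groups. A call higher in EVs was then nearly fixed in advance, and nothing is read from the count of 4. In cells 3 of the list were tested, and 2 were called lower after LPS, mir-700 at -1.64 ± 0.19 and mir-702 at -1.55 ± 0.53 (edgeR adjusted p = 2.36e-07 and 0.0290), beside 29 of all 259 precursors called lower. The members' differences there were positive and not called. After IL-10, after TGF-β and for their mean, edgeR called 0 of these 3 in cells. mir-700 had an unadjusted p under 0.05 after each of the 2 cytokines, but with opposite signs. Its log2 differences were -0.47 after IL-10 and 0.39 after TGF-β.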

How the data were processed

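The authors deposited raw read counts per microRNA precursor for cells and EVs in 8 tables, of which 2 are identical copies and 6 were used. Per the labels, libraries were made with a SMARTer small RNA kit and amplified over 18 cycles, and no molecular identifier is stated. DESeq2 is named in the submitters' processing notes. Aligner, annotation, build and the handling of multi-mapping reads: not given in the sources used here. Column names give each library's group but not which sample it is, and 0 columns were unmapped.

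Members and lists were chosen with earlier results of these data known. Counts were tested with edgeR 4.0.16 (quasi-likelihood, TMM, filterByExpr minimum 10, Benjamini-Hochberg threshold 0.05) in R 4.3.3: 5 comparisons in the 12 cell libraries with EVs against cells in all 24 described only for the members. DESeq2 1.42.0 was an alternative. The fits were tested on simulated data. Hairpins were aligned with BLAST+ 2.17.0 to GENCODE M21 transcripts. Named precursors are the members, the 3 nearest patterns per member and compartment, called members of the mir-680 to mir-721 list (at most 4 per comparison) and mir-6236; mir-6240 and mir-223 were added after their values were seen. No pair of libraries within a group agreed within sampling noise.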

Additional observations from a re-analysis of the deposited data

Results flagged for a closer look

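mir-682 differed from control in opposite directions in EVs and in cells after IL-10. In EVs its log2 difference from control was 1.74 and every IL-10 library lay above every control library. In cells it was -0.51 and every IL-10 library lay below every control library, but the cell difference did not pass the test (edgeR adjusted p = 0.110). The difference between the EV and cell effects was not tested, and the EV values are those by which the precursor was chosen. IL-10 EV library 1, which held 266 of the 377 mir-682 counts of its group, also had the lowest mir-6236 share of its group (61.2%), and the part of this in the result was not tested.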

How the results depend on the processing

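The number of members called in cells varied with single libraries. For IL-10 against control it was 1, between 0 and 1 when each library was left out in turn, and 2 on library totals, without the filter on low counts and with only the compared groups. For TGF-β against control it was 0, and 0 to 2 with a library left out. For LPS against the cytokine mean it was 2, 0 on library totals, 3 without the filter on low counts (mir-692-1 gained), 1 without mir-6236 and mir-6240, and 0 to 5 with a library left out. It was 0 without LPS library 1 and 5 without TGF-β library 1. For LPS and for the cytokine mean against control it was 0 under each alternative run. For EVs against cells it was 5. The choice of members drew on these EV libraries, so nothing is read from this count or its alternatives. It was 4 to 5 with a library left out (mir-703 was lost without control EV library 1) and 4 on library totals. It was 4 with the LPS and control groups only and 3 of 3 with the mir-692 copies summed. On library totals mir-703 reversed to -0.06 for EVs over cells, to -0.24 after LPS and to -1.72 in control, and the mir-692 copies reversed to 0.43, 0.14 and 0.14 for LPS against control EVs. DESeq2's Wald test, DESeq2 size factors, the robust prior and a mean of at least 50 counts changed no call of a member they tested. The cause of these shifts was not tested. No paired analysis was possible because library numbers in the column names are not tied to samples or to a shared culture or day.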
